A study of Mus musculus with 8 samples.

Results

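Molecular chaperones bind unfolded proteins and help them fold, move between compartments or be degraded. The genes described here were all rows of the count table whose symbol starts with Hspa, Hspb, Hspd, Hspe, Hsph or Hsp90 (29 genes), or with Dnaja, Dnajb or Dnajc followed by a number (43 genes). They make up 72 of 24454 gene rows. The choice by symbol also takes in Hspbp1 and Hspbap1, proteins that bind heat shock proteins, and Hspb11, an intraflagellar transport protein. In the grouping used here, 10 members were assigned to the endoplasmic reticulum (ER), 8 to the mitochondrion and 54 to the cytosol, the nucleus or elsewhere. The last group takes in Dnajc14, Dnajc16 and Dnajc18, J proteins that may also act at the ER, so the ER group may not be complete.

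HSP70 proteins hold exposed hydrophobic stretches of client proteins through cycles of ATP hydrolysis. J-domain proteins, encoded by the Dnaj genes, deliver clients to HSP70 and trigger that hydrolysis, and HSP110 proteins exchange the nucleotide afterwards. HSP90 finishes clients such as kinases and hormone receptors, small HSPs keep aggregating proteins soluble, and the Hspd1-Hspe1 chaperonin folds proteins inside mitochondria. The cytosolic members are classically driven by heat shock factor 1, and the ER members by the unfolded protein response. Primitive red cells of the yolk sac fill with haemoglobin, whereas endothelium and yolk sac endoderm both make proteins for secretion.

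RNA came from pools of cells sorted by flow cytometry from dissociated yolk sacs of E11.5 mouse embryos. The embryos were C57BL/6 and carried the miR144/451+/GFP allele, in which GFP marks cells that use the erythroid miR144/451 locus, and this allele was shared by all groups. The double positive group (VE-Cadherin+ GFP+) had 2 pools of 24 cells. The erythroid group (VE-Cadherin- GFP+) had 3 pools of 25 cells, and the endothelial group (VE-Cadherin+ GFP-) had 3 pools of 25 cells. VE-Cadherin is an endothelial junction protein. Full-length cDNA was made by the Smart-seq2 protocol with 14 PCR cycles, and the deposited values were raw read counts per gene. The labels do not say whether the pools came from different embryos, so a p-value here reflects only how far these libraries vary among themselves, which may be technical. In such pools, fewer cells of a type and less RNA per cell cannot be told apart.

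Total counts were 4637930 and 4818074 in double positive pools, 5291843 to 7618444 in erythroid pools and 3723128 to 4439165 in endothelial pools. Globin genes took 8.85% and 14.0% of the counts in double positive pools, 54.5 to 56.5% in erythroid pools and 0.00223 to 0.00404% in endothelial pools. Levels are given as CPM, counts scaled to a common library size with TMM factors, a method that sets the libraries on the scale of their shared genes. Without that scaling the median of all tested genes moved by -1.54 (log2) for erythroid against endothelial pools, by -0.63 for double positive against endothelial pools and by 0.90 for double positive against erythroid pools. The 8 endothelial markers, Cdh5 among them, summed to 232 and 382 CPM in double positive pools, stood at 0 in the erythroid pools and summed to 1620.0 to 2682 CPM in endothelial pools. Visceral endoderm markers (10 genes, such as Afp, Ttr and Apoa1) summed to 87026 and 88911 CPM in double positive pools, 10.1 to 22.2 CPM in erythroid pools and 29.3 to 45.7 CPM in endothelial pools. Macrophage markers (10 genes) summed to 300.5 and 252 CPM in double positive pools, were all at 0 in erythroid pools, and summed to 1190.0, 3097 and 1343 CPM in endothelial pools. Immediate early genes (10 genes, such as Fos and Egr1) summed to 360.4 and 427 CPM in double positive pools, 127 to 194 CPM in erythroid pools and 796 to 1333 CPM in endothelial pools. These lists differed between the same groups as the results that follow, and their part in those results was not tested.

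Of the 72 members, 67 had a count in double positive pools, 58 in erythroid pools and 62 in endothelial pools, and 50 had a count in every pool. Dnajb8, Hspb2, Hspb3 and Hspb9 were at 0 throughout. Dnajb7, Dnajb13, Hspa1l and Hspb7 had between 2 and 24 counts over all pools and, with the genes at 0, were left out by the filter on low counts, so 64 members were tested. Chaperone reads made up 0.842% and 0.797% of all counts in double positive pools, 0.376, 0.328 and 0.357% in erythroid pools and 1.06, 1.19 and 1.08% in endothelial pools. With globin counts left out of the total, these shares were 0.924 and 0.927%, 0.863, 0.749 and 0.784%, and 1.06, 1.19 and 1.08% in the same order of populations. The pools did not overlap between populations on either total.

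**Figure D1:**
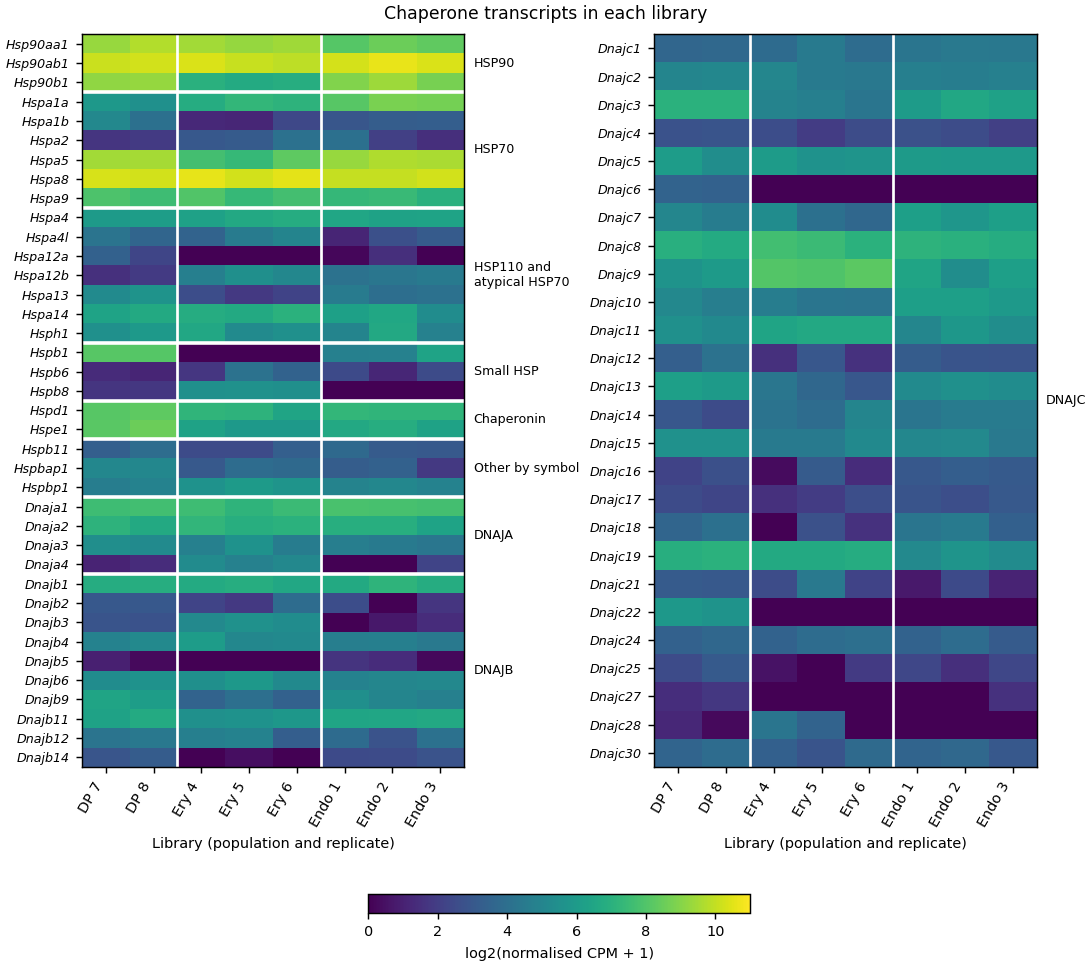
Level of the 64 tested chaperone genes (rows, grouped by class) in each of the 8 libraries (columns; DP, double positive; Ery, erythroid; Endo, endothelial), as log2(normalised CPM + 1), with dark cells at 0. Hspb1 is dark in the 3 erythroid libraries, Hspb8 in the 3 endothelial libraries, and Dnajc22 and Dnajc6 in both of those populations, while Hsp90ab1 and Hspa8 are bright throughout.

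At an adjusted p under 0.05 (edgeR's quasi-likelihood test, Benjamini-Hochberg over all genes tested), 23 members separated erythroid from endothelial pools: 11 rose and 12 fell in the erythroid pools. Among all 12136 genes tested, 14.4% were higher and 26.6% lower, against 17.2% and 18.8% of the tested members, so that neither share stands far from that background. The median log2 difference of the members was -0.05, and that of all genes -0.36. With library size alone in place of TMM, 3 members were higher and 42 lower, against a background of 3.46% and 59.9%. Double positive pools had 11 members higher and 4 lower than endothelial pools, where the background was 14.6% and 6.92% of genes. Under library size alone these counts were 7 and 12, against a background of 9.21% and 15.7%. Against erythroid pools, double positive pools had 15 members higher and 9 lower, where the background was 31.5% and 10.6%, and under library size alone 33 were higher and 3 lower, against 47.4% and 3.91%. Without endothelial pool 1 only 7 members were higher in erythroid than in endothelial pools. Without double positive pool 7 or 8, 5 members were higher and 2 lower than in endothelial pools, and 5 and 4 were lower than in erythroid pools; without endothelial pool 1, 2 were lower in double positive than in endothelial pools. Comparisons that share a population share its pools and are not independent of each other. In all, 32 tested members passed in at least 1 comparison, and 5 passed in all 3: Hspb1, Hspb8, Hspa1a, Dnajb3 and Dnajb9. The matching shares over all genes tested were not counted, so neither number is read as a trait of the members. Under library size alone Dnajb3, Dnajb9 and Hspa1a each lost at least 1 of these calls.

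The ER chaperones gave the widest split by compartment. Of the 10 genes assigned to the ER, 8 fell in erythroid relative to endothelial pools and none rose, beside 26.6% and 14.4% of all genes. Their median log2 difference was -1.70. Dnajc14, Dnajc16 and Dnajc18, grouped elsewhere, did not pass in this comparison, and Dnajc14 was lower in double positive than in erythroid pools. In double positive against erythroid pools, 7 of the 10 were higher and none lower (31.5% and 10.6% of all genes), with a median of 2.01. Between double positive and endothelial pools 1 was higher (Dnajb9) and 1 lower (Dnajc10), beside 14.6% and 6.92% of all genes. The 8 falls in erythroid pools were also called whichever library was left out. Under library size alone 9 fell, beside 59.9% of all genes. Without double positive pool 8, 6 genes were higher in double positive than in erythroid pools.

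A share that needs no scaling between libraries shows the same split. ER members took 22.6 and 22.5% of the chaperone counts in double positive pools, 7.28, 7.46 and 9.0% in erythroid pools and 23.5, 25.2 and 23.5% in endothelial pools. Every erythroid pool lay below every other pool. For the HSP70 pair of the ER and the cytosol, Hspa5 made up 35.8 and 37.7% of Hspa5 plus Hspa8 counts in double positive pools, 11.8, 11.8 and 16.9% in erythroid pools and 37.7, 44.1 and 39.4% in endothelial pools. Levels of visceral endoderm markers in double positive pools and of macrophage markers in endothelial pools, both near or at 0 in erythroid pools, ran alongside this split, and their part in it was not tested.

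Promoter sequences of the ER members that hold a full ER stress response element are shown because these genes moved together. The element, searched on both strands as CCAAT followed by any 9 bases and CCACG, binds NF-Y and ATF6 in the unfolded protein response. It stood in 39 of 32851 RefSeq promoter windows (0.119%; 250 bases before to 50 after a gene start, GRCm38.p6), and in those of Hspa5, Hsp90b1 and Dnajc3 among the 59 member genes with a window. The windows of Dnajb9, Dnajb11, Dnajb14 and Dnajc10, which also fell in erythroid pools, hold no match, and Hspa13 had no window. Capitals mark the element, which begins 65 bases upstream of the start in Hspa5 (chr2:34771840-34772139, plus strand), 212 and, on the opposite strand, 107 bases upstream in Hsp90b1 (chr10:86705395-86705694, minus strand), and 105 bases upstream in Dnajc3 (chr14:118937682-118937981, plus strand). A match is a description of the letters and not of binding.
Hspa5: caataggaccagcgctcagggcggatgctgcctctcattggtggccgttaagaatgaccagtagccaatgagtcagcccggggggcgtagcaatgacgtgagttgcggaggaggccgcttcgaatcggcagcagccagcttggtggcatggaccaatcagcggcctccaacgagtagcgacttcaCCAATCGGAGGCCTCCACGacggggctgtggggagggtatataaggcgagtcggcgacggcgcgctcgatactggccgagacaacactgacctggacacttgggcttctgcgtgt
Hsp90b1: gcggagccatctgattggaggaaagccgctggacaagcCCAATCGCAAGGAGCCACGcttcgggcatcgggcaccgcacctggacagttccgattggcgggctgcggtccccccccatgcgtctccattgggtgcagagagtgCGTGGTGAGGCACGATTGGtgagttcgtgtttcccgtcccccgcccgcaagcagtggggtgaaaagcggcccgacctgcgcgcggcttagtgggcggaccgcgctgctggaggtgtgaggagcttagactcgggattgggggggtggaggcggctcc
Dnajc3: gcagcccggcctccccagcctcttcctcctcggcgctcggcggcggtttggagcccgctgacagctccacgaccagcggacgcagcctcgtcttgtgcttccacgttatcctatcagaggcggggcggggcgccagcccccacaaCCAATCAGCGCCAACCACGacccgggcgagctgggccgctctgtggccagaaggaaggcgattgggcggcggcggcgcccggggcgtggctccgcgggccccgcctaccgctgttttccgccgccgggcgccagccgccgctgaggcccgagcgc

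Hspa5 encodes BiP, the HSP70 of the ER lumen. It stood at 707 and 729 CPM in double positive pools, 207, 162 and 309 CPM in erythroid pools and 639.8, 815 and 786 CPM in endothelial pools. The erythroid pools lay below all other pools, and the double positive pools lay within the endothelial range. The log2 difference was -1.73 ± 0.23 (SE; adjusted p = 0.00039) for erythroid minus endothelial, 1.67 ± 0.24 (adjusted p = 0.00084) for double positive minus erythroid and -0.06 ± 0.25 (adjusted p = 0.91) for double positive minus endothelial.

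Hsp90b1 encodes GRP94, the HSP90 of the ER. Its levels were 575 and 610.2 CPM in double positive pools, 125, 106 and 116 CPM in erythroid pools and 487, 668 and 430.2 CPM in endothelial pools. Erythroid pools were again lowest without overlap, with a log2 difference of -2.19 ± 0.18 (adjusted p = 3.01e-05) against endothelial pools, and double positive pools exceeded them with a log2 difference of 2.36 ± 0.19 (adjusted p = 4.09e-05). Dnajc3 encodes p58IPK, a BiP co-chaperone that also inhibits the kinase PERK. It was at 129 and 131 CPM in double positive pools, 29.3, 26.0 and 18.6 CPM in erythroid pools and 65.3, 96.0 and 76.8 CPM in endothelial pools. The populations did not overlap, with double positive pools highest. Its difference was -1.68 ± 0.24 (adjusted p = 0.0006) for erythroid minus endothelial pools, 2.40 ± 0.26 (adjusted p = 0.00017) for double positive minus erythroid pools and 0.71 ± 0.25 (adjusted p = 0.079), not past the threshold, for double positive minus endothelial pools.

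The other J-domain partners of BiP split in more than 1 way. Dnajb9 encodes ERdj4, which recruits BiP to the stress sensor IRE1 and aids degradation of misfolded proteins. It read 85.9 and 69.4 CPM in double positive pools, 10.2, 15.2 and 9.77 CPM in erythroid pools and 43.2, 30.8 and 26.6 CPM in endothelial pools. All 3 populations were separate, with double positive pools highest and erythroid pools lowest. The differences were -1.51 ± 0.31 (adjusted p = 0.0044) for erythroid minus endothelial, 2.73 ± 0.34 (adjusted p = 0.00035) for double positive minus erythroid and 1.21 ± 0.33 (adjusted p = 0.031) for double positive minus endothelial pools. The last call was lost without endothelial pool 2 (adjusted p = 0.0746), endothelial pool 3 (0.0860), double positive pool 7 (0.256) or double positive pool 8 (0.128), and under library size alone (0.243).

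Dnajb11 encodes ERdj3, a soluble co-chaperone that binds clients directly. It was at 80.9 and 106 CPM in double positive pools, 44.5, 47.8 and 55.7 CPM in erythroid pools and 88.4, 90.5 and 98.6 CPM in endothelial pools. Erythroid pools were lowest, with a log2 difference of -0.91 ± 0.19 (adjusted p = 0.0048) against endothelial pools. Double positive pools exceeded erythroid pools with a log2 difference of 0.92 ± 0.21 (adjusted p = 0.008), a call lost without double positive pool 8 (adjusted p = 0.0870). Dnajc10 encodes ERdj5, a reductase that opens disulfide bonds of misfolded proteins. It was at 34.0 and 25.4 CPM in double positive pools, 24.4, 18.4 and 17.6 CPM in erythroid pools and 72.1, 72.6 and 60.2 CPM in endothelial pools, so that here the endothelial pools stood far above both other populations. The erythroid minus endothelial difference was -1.76 ± 0.26 (adjusted p = 0.00073). In double positive against endothelial pools its difference was -1.20 ± 0.29 (adjusted p = 0.02), a call lost without endothelial pool 1 (adjusted p = 0.0548), double positive pool 7 (0.0845) or double positive pool 8 (0.204).

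Hspa13 encodes STCH, a microsomal HSP70 that lacks the substrate-binding domain. It was at 37.4 and 49.3 CPM in double positive pools, 5.12, 2.53 and 3.58 CPM in erythroid pools and 22.7, 14.6 and 16 CPM in endothelial pools. The populations were separate, and the differences were -2.23 ± 0.43 (adjusted p = 0.0029) for erythroid minus endothelial and 3.51 ± 0.46 (adjusted p = 0.00046) for double positive minus erythroid pools. Dnajb14, an ER membrane J protein, was low throughout, at 6.49 and 8.14 CPM in double positive pools, 0, 0.317 and 0 CPM in erythroid pools and 4.49, 4.72 and 5.97 CPM in endothelial pools, and its erythroid values rest on 1 count in all. Its ratio of endothelial to erythroid CPM was 52.8 with a 95% counting interval of 9.27 to 2107, and that of double positive to erythroid CPM was 76.7 with an interval of 13.3 to 3070.2. The remaining members assigned to the ER, Dnajb12 and Dnajc1, passed in no comparison. Dnajb12 was at 17.9 and 20.4 CPM in double positive pools, 25.8, 28.2 and 8.79 CPM in erythroid pools and 13.5, 6.02 and 16.3 CPM in endothelial pools, and Dnajc1 at 11.45 and 12.2 CPM in double positive pools, 13.5, 21.9 and 14.0 CPM in erythroid pools and 18.5, 20.7 and 20.2 CPM in endothelial pools.

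**Figure D2:**
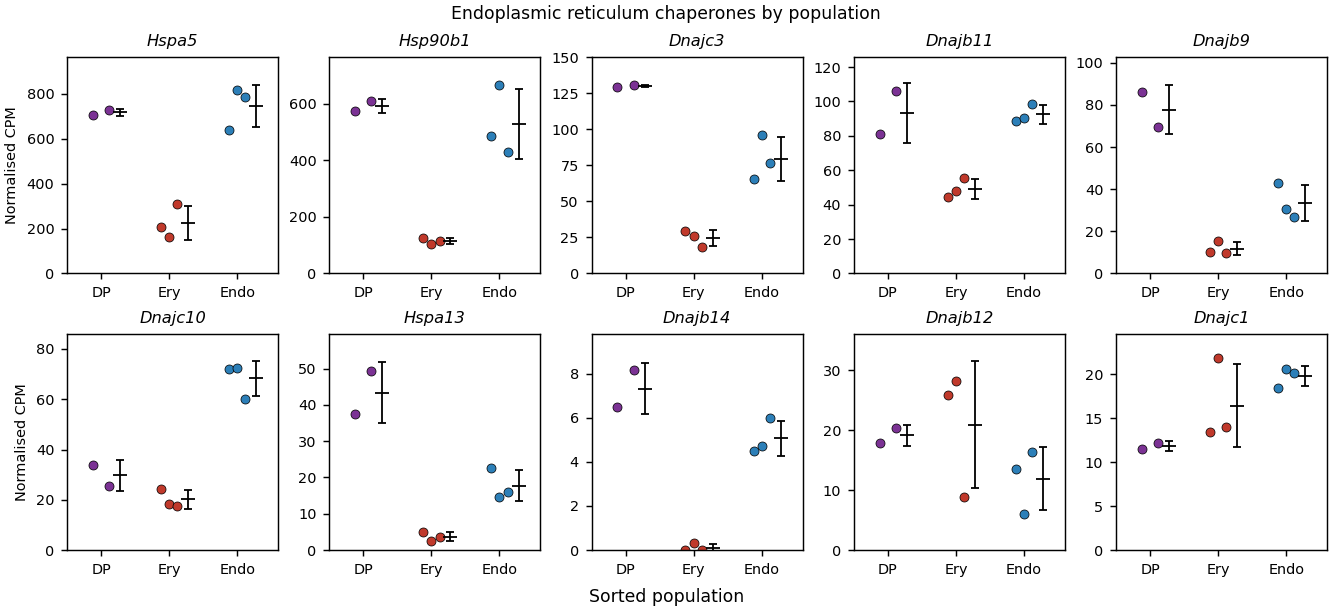
Normalised CPM of the 10 ER chaperone genes in double positive (DP), erythroid (Ery) and endothelial (Endo) pools; points are pools, bars the mean and SD (n = 2, 3 and 3), and each vertical axis starts at 0. In 8 panels the erythroid points lie below all other points; the exceptions are Dnajb12 and Dnajc1.

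Mitochondrial members formed a larger share of chaperone counts in double positive pools (14.4 and 14.4%) than in erythroid pools (10.9, 11.1 and 10.4%) or endothelial pools (8.87, 8.42 and 7.31%), without overlap. The lead of double positive over erythroid pools lay in the Hspd1-Hspe1 pair, at 7.66 and 8.63% in double positive pools, 3.38, 3.41 and 2.37% in erythroid pools and 4.10, 3.60 and 3.46% in endothelial pools. The other 6 members took 6.77 and 5.78% in double positive pools, 7.55, 7.67 and 7.99% in erythroid pools and 4.77, 4.82 and 3.85% in endothelial pools, so that erythroid pools were highest without the pair. Of the 8 genes, 2 rose and none fell in erythroid against endothelial pools, beside 14.4% and 26.6% of all genes. In double positive against endothelial pools 3 rose and none fell (14.6% and 6.92% of all genes), and double positive against erythroid pools had 2 rises and 1 fall (31.5% and 10.6%). Under library size alone, 6 of the 8 were lower in erythroid than in endothelial pools, beside 59.9% of all genes, and 6 were higher in double positive than in erythroid pools, beside 47.4%.

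Hspd1 (HSP60) and Hspe1 (HSP10) form the chaperonin barrel and its lid, and they lie head to head on chromosome 1. Their shared promoter region is shown because both genes were highest in the double positive pools. The Hspe1 window (chr1:55087898-55088197, plus strand) holds 2 overlapping matches, on opposite strands, to a heat shock element of 3 units, GAANNTTC followed at once by NNGAA. This element was in 0.603% of all windows and in those of 4 member genes (Dnajb6, Hspd1, Hspe1 and Hsph1). The Hspd1 window overlaps that of Hspe1 and holds the same matches. Capitals mark the joined matches to GAANNTTC and TTCNNGAA, searched on both strands, beginning 89 bases upstream of the Hspe1 start.
Hspe1: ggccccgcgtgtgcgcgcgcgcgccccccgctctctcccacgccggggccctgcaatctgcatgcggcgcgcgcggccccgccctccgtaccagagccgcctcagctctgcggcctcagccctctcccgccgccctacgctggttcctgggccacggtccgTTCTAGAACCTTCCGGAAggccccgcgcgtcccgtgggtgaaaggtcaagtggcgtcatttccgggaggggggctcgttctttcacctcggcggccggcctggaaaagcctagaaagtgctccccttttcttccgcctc

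Hspd1 was at 284 and 304 CPM in double positive pools, 146, 137 and 85.7 CPM in erythroid pools and 154, 147 and 147 CPM in endothelial pools. Double positive pools were highest without overlap, with a log2 difference of 0.97 ± 0.22 (adjusted p = 0.015) against endothelial and 1.26 ± 0.22 (adjusted p = 0.0021) against erythroid pools. The call against endothelial pools was lost without double positive pool 7 (adjusted p = 0.0652) or 8 (0.106), and under library size alone (0.288). Hspe1 stood at 287 and 370.2 CPM in double positive pools, 79.1, 58.9 and 60.3 CPM in erythroid pools and 99.3, 113 and 79.1 CPM in endothelial pools. Double positive pools were again highest without overlap, with a log2 difference of 1.76 ± 0.22 (adjusted p = 0.00092) against endothelial and 2.31 ± 0.22 (adjusted p = 9.46e-05) against erythroid pools. Hspe1 made up 50.3 and 54.9% of the pair's counts in double positive pools, 35.1, 30.1 and 41.3% in erythroid pools and 39.1, 43.4 and 34.9% in endothelial pools. For erythroid minus endothelial pools Hspe1 had a log2 difference of -0.55 ± 0.20 (adjusted p = 0.056), which passed with RLE factors (-0.74, adjusted p = 0.0157) and without erythroid pool 4 (0.0257) or endothelial pool 3 (0.0331). Hspd1 had a log2 difference of -0.28 ± 0.20 (adjusted p = 0.29). Each gene shares 44.8% of the 50-base words of its transcripts with other annotated genes, mostly pseudogene copies, so part of its reads cannot be placed uniquely.

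Hspa9 encodes mortalin, the HSP70 motor that pulls proteins into the mitochondrial matrix. It was at 244 and 191 CPM in double positive pools, 257, 164 and 209 CPM in erythroid pools and 160.0, 173 and 125 CPM in endothelial pools and passed in no comparison with TMM, but under library size alone it was higher in double positive than in erythroid pools (log2 difference 0.97) and lower in erythroid than in endothelial pools (-1.08). Dnajc19, a J protein of the import motor in the inner membrane, was at 117 and 128 CPM in double positive pools, 103, 101 and 110.4 CPM in erythroid pools and 34.8, 50.4 and 38.2 CPM in endothelial pools. Endothelial pools were lowest, with a log2 difference of 1.35 ± 0.19 (adjusted p = 0.00059) for erythroid and 1.57 ± 0.21 (adjusted p = 0.0012) for double positive pools, although the erythroid difference was -0.19 under library size alone. Dnajc11, a J protein tied to the inner membrane folding complex MICOS, was at 44.7 and 36.0 CPM in double positive pools, 85.4, 98.5 and 98.4 CPM in erythroid pools and 31.8, 56.1 and 41.1 CPM in endothelial pools. Erythroid pools were highest, with a log2 difference of 1.13 ± 0.25 (adjusted p = 0.006) against endothelial pools (-0.41 under library size alone), and double positive pools were lower than erythroid pools with a log2 difference of -1.22 ± 0.29 (adjusted p = 0.0092), a call lost without double positive pool 8 (adjusted p = 0.0946) and under library size alone (-0.30, adjusted p = 0.416). Dnaja3, Dnajc15 and Dnajc30, the other mitochondrial J proteins, passed in no comparison.

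The cytosolic HSP90 genes differed in balance between populations. Hsp90ab1, the constitutive form, was at 1102 and 1230.4 CPM in double positive pools, 1332, 1074 and 964 CPM in erythroid pools and 1250.3, 1594 and 1344 CPM in endothelial pools and passed in no comparison when all libraries were fitted with TMM factors. It was lower in erythroid than in endothelial pools with RLE factors (log2 difference -0.50, adjusted p = 0.0265), with DESeq2 (0.00576), in a fit of those populations alone (0.0362), without erythroid pool 4 (0.0353) and under library size alone (log2 difference -1.86). The last setting also put it lower in double positive than in endothelial pools (-0.90) and higher in double positive than in erythroid pools (0.96). Hsp90aa1, the inducible form, was at 631 and 852 CPM in double positive pools, 703, 614 and 694 CPM in erythroid pools and 275, 364 and 320.1 CPM in endothelial pools. It was lowest in endothelial pools without overlap, with a log2 difference of 1.07 ± 0.16 (adjusted p = 0.00079) for erythroid pools and 1.21 ± 0.17 (adjusted p = 0.0018) for double positive pools. Under library size alone the erythroid difference was -0.47. Within the pair, a ratio free of scaling, Hsp90aa1 made up 36.4 and 40.9% of counts in double positive pools, 34.5, 36.4 and 41.9% in erythroid pools and 18.0, 18.6 and 19.2% in endothelial pools. The endothelial pools lay apart and the other populations overlapped. Hsp90aa1 shares 58.5% of its 50-base words with other annotated genes, against 4.49% for Hsp90ab1, so its counts are less certain.

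Among HSP70 genes of the cytosol, Hspa8 (HSC70), the constitutive form that also uncoats clathrin vesicles, was at 1271 and 1203 CPM in double positive pools, 1544, 1217 and 1517 CPM in erythroid pools and 1055, 1033 and 1209.5 CPM in endothelial pools. Its erythroid minus endothelial difference was 0.38 ± 0.13 (adjusted p = 0.044) and did not hold. It was lost without endothelial pool 1 (adjusted p = 0.134) or 2 (0.123), erythroid pool 4 (0.199) or 6 (0.178), or double positive pool 8 (0.0689), was 0.19 with RLE factors and -1.17 under library size alone. Hspa8 shares 74.8% of its 50-base words with other annotated genes.

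Hspa1a and Hspa1b, the stress-inducible HSP70 genes, are near-identical neighbours on chromosome 17. Their promoter windows differ at 4 of 300 positions, and each holds GAANNTTC 104 bases upstream of the start. Hspa1a was at 57.3 and 44.8 CPM in double positive pools, 113, 156 and 135 CPM in erythroid pools and 279, 444 and 409.8 CPM in endothelial pools. All populations were separate, with endothelial pools highest and double positive pools lowest. The differences were -1.48 ± 0.22 (adjusted p = 0.00067) for erythroid minus endothelial, -2.89 ± 0.27 (adjusted p = 0.00018) for double positive minus endothelial and -1.40 ± 0.25 (adjusted p = 0.0025) for double positive minus erythroid pools, the last lost under library size alone (adjusted p = 0.14).

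Hspa1b followed another order, at 33.8 and 15.5 CPM in double positive pools, 1.40, 1.27 and 4.23 CPM in erythroid pools and 6.73, 8.46 and 8.71 CPM in endothelial pools. It was higher in double positive than in erythroid pools, with a log2 difference of 3.42 ± 0.72 (adjusted p = 0.0052), a call lost without double positive pool 7 (adjusted p = 0.0896), which held the most. Its difference was 1.63 ± 0.67 (adjusted p = 0.12) for double positive minus endothelial and -1.80 ± 0.66 (adjusted p = 0.054) for erythroid minus endothelial pools. Hspa1b took 37.1 and 25.7% of the pair's counts in double positive pools, 1.22, 0.805 and 3.03% in erythroid pools and 2.36, 1.87 and 2.08% in endothelial pools. Since 58.8% of the 50-base words of Hspa1a are also in Hspa1b, the split between them is uncertain. Their summed level was 91.1 and 60.2 CPM in double positive pools, 114, 157 and 139.7 CPM in erythroid pools and 285, 452 and 419 CPM in endothelial pools, again without overlap. Immediate early genes, which cell dissociation induces along with Hspa1a, were also highest in endothelial pools. They were, however, higher in double positive (360.4 and 427 CPM) than in erythroid pools (127 to 194 CPM), the reverse of Hspa1a. Their part in the Hspa1a order was not tested.

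HSP110 proteins are exchange factors for HSP70. Hspa4 was at 62.6 and 68.2 CPM in double positive pools, 78.7, 98.9 and 109.8 CPM in erythroid pools and 88.8, 79.1 and 82.8 CPM in endothelial pools. Hsph1 was at 45.1 and 61.3 CPM in double positive pools, 96.4, 37.1 and 45.6 CPM in erythroid pools and 30.6, 98.3 and 27.8 CPM in endothelial pools, with erythroid pool 4 and endothelial pool 2 above all other pools. Neither passed in any comparison when all libraries were fitted with TMM factors. Hspa4 was lower in double positive than in erythroid pools with a minimum count of 50 (log2 difference -0.60, adjusted p = 0.0426) and without erythroid pool 4 (-0.65, 0.0376). With library size alone it was lower than in endothelial pools in the double positive (-0.99, adjusted p = 0.0126) and the erythroid pools (-1.35). Hspa4l, another HSP110 form, was at 17.6 and 11 CPM in double positive pools, 10.5, 22.8 and 30.6 CPM in erythroid pools and 1.19, 5.37 and 7.91 CPM in endothelial pools, and its erythroid minus endothelial difference of 2.14 ± 0.73 (adjusted p = 0.043) was lost without endothelial pool 1 (adjusted p = 0.0751) or 2 (0.0896), erythroid pool 5 (0.0837) or 6 (0.120), or either double positive pool (0.0718 and 0.0735), and under library size alone (0.490).

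Hspa12b is an atypical HSP70 known from endothelial cells. It was at 1.91 and 2.65 CPM in double positive pools, 26.1, 44.0 and 32.9 CPM in erythroid pools and 16.9, 18.7 and 21.9 CPM in endothelial pools. Double positive pools were far below both other populations, with a log2 difference of -3.06 ± 0.47 (adjusted p = 0.0025) against endothelial and -3.90 ± 0.49 (adjusted p = 0.00034) against erythroid pools, and the erythroid minus endothelial difference was 0.84 ± 0.36 (adjusted p = 0.09). Its relative Hspa12a had 9.55 and 3.87 CPM in double positive pools, 0 CPM in erythroid pools and 0.132, 1.79 and 0 CPM in endothelial pools, which put it at least 23.8-fold higher in double positive than in erythroid pools against a floor of 3 counts over a group. That call was lost without any 1 of the double positive or erythroid pools (adjusted p from 0.0602 to 0.187). Hspa2 and Hspa14 passed in no comparison.

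Of the 7 small HSP genes, 3 were tested and 2 of these, Hspb1 and Hspb8, passed. Hspb1 encodes HSP27, an actin-associated holdase, and Hspb8 encodes HSP22, which works with Bag3 in selective autophagy. Their promoter windows are shown because the pair ran in opposite directions in the comparisons with erythroid pools, whereas both were higher in double positive than in endothelial pools. Capitals mark matches to GAANNTTC or TTCNNGAA, which 15.1% of all windows hold, beginning 117 and 97 bases upstream of the start in Hspb1 (chr5:135887669-135887968, plus strand) and just past the start in Hspb8 (chr5:116422815-116423114, minus strand).
Hspb1: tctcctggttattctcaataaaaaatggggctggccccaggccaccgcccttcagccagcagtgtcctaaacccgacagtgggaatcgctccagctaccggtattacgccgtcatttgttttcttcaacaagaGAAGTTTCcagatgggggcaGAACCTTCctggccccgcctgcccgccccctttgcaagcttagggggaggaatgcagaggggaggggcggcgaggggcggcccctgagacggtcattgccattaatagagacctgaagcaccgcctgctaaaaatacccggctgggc
Hspb8: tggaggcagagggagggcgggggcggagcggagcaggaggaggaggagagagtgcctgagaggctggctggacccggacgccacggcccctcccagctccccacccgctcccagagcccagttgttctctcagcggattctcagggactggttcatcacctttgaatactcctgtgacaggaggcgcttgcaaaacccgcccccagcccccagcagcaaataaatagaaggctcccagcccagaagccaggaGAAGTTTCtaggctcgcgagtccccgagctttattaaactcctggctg

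Hspb1 was at 278 and 271 CPM in double positive pools, 0 CPM in erythroid pools and 26.9, 27.2 and 82.6 CPM in endothelial pools. It was therefore at least 155-fold lower in erythroid than in endothelial pools (adjusted p = 0.0004) and at least 963-fold higher in double positive than in erythroid pools (adjusted p = 0.00015), against the floor of 3 counts over a group. Double positive pools exceeded endothelial pools with a log2 difference of 2.59 ± 0.51 (adjusted p = 0.014), with endothelial pool 3 above the other endothelial pools. That call was lost without double positive pool 7 (adjusted p = 0.0617) or 8 (0.0641). Hspb1 shares 51.7% of its 50-base words with the pseudogene Hsp25-ps1, and the 0 in erythroid pools holds for the reads assigned to the gene.

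Hspb8 was at 2.29 and 2.44 CPM in double positive pools, 45.2, 45.6 and 43.3 CPM in erythroid pools and 0 CPM in endothelial pools. The erythroid pools stood far above the others and lay within a narrow range. Hspb8 was at least 297-fold higher in erythroid than in endothelial pools (adjusted p = 3.79e-05), at least 15.7-fold higher in double positive than in endothelial pools (adjusted p = 0.0018), and lower in double positive than in erythroid pools with a log2 difference of -4.23 ± 0.53 (adjusted p = 0.00092). The double positive level rests on 24 counts. Globin took 8.85% and 14.0% of the counts in those pools against 54.5 to 56.5% in erythroid pools. The part of erythroid transcripts in the double positive Hspb8 level was not tested. Hspb6, a muscle-enriched small HSP, passed in no comparison, at 1.53 and 1.22 CPM in double positive pools, 2.33, 16.8 and 10.1 CPM in erythroid pools and 4.62, 1.30 and 4.68 CPM in endothelial pools.

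**Figure D3:**
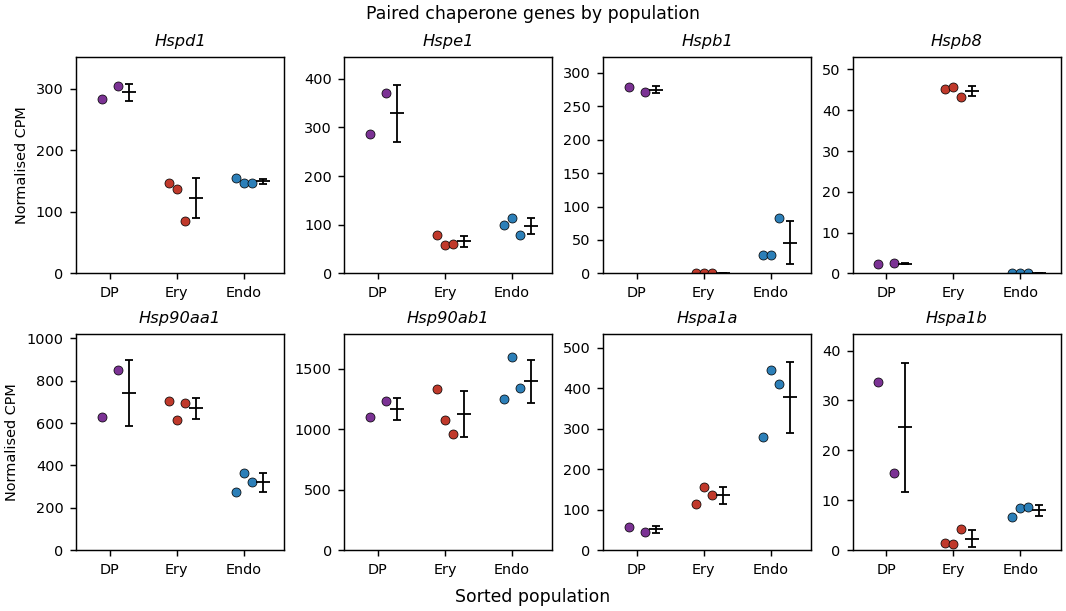
Normalised CPM of 4 pairs of related chaperone genes in double positive (DP), erythroid (Ery) and endothelial (Endo) pools; points are pools, bars the mean and SD (n = 2, 3 and 3), and axes start at 0. Hspb1 is at 0 in erythroid pools and Hspb8 at 0 in endothelial pools, Hsp90aa1 is lowest in endothelial pools while Hsp90ab1 overlaps, and double positive pools are lowest for Hspa1a and highest for Hspa1b.

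**Figure D4:**
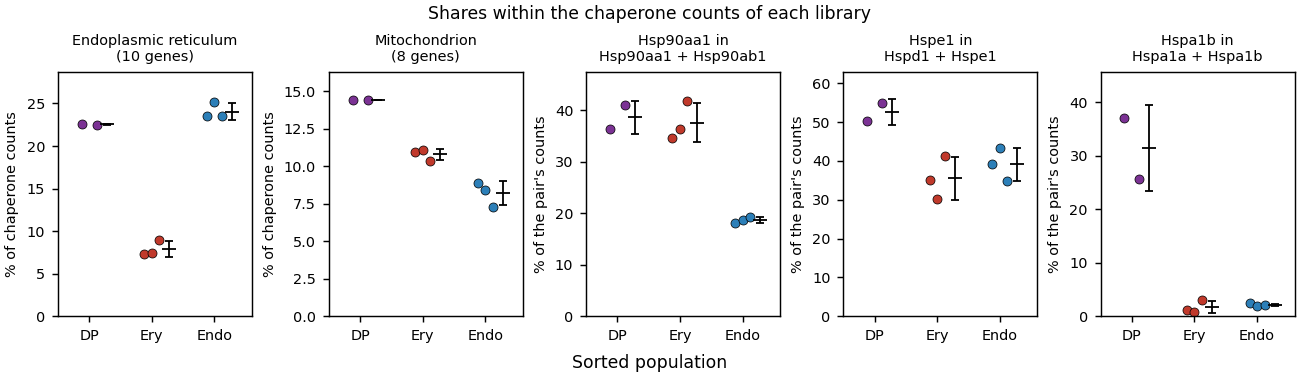
Shares, in percent of raw counts, that need no scaling between libraries: the ER and mitochondrial shares of all chaperone counts and 3 within-pair shares, for each double positive (DP), erythroid (Ery) and endothelial (Endo) pool (points) with mean and SD (bars; n = 2, 3 and 3). Erythroid pools are lowest for the ER share (7.28 to 9.0%), endothelial pools for Hsp90aa1 (18.0 to 19.2%), and double positive pools highest for Hspa1b (25.7 and 37.1%).

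The cytosolic J proteins with the broadest HSP70 partnership passed in no comparison when all libraries were fitted with TMM factors. Dnaja1, which helps HSP70 refold proteins, was at 189 and 203 CPM in double positive pools, 192, 143 and 179 CPM in erythroid pools and 232, 221 and 208 CPM in endothelial pools. Dnajb1 (HSP40), the co-chaperone most used with inducible HSP70, was at 113 and 114 CPM in double positive pools, 103, 114 and 97.1 CPM in erythroid pools and 101, 142 and 112 CPM in endothelial pools. Dnaja1 was, however, lower in erythroid than in endothelial pools with RLE factors (log2 difference -0.55, adjusted p = 0.0149), with DESeq2 (0.00198), in a fit of those populations alone (0.0294) and without erythroid pool 4 (0.0427), and both genes were lower under library size alone (-1.91 and -1.72).

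More specialised J proteins separated the populations. Dnajc9, a histone chaperone that brings HSP70 to histones H3 and H4, was at 49.4 and 63.1 CPM in double positive pools, 265, 248 and 296 CPM in erythroid pools and 84.2, 41.5 and 73.1 CPM in endothelial pools. It was highest in erythroid pools without overlap, with a log2 difference of 2.02 ± 0.26 (adjusted p = 0.00036) against endothelial pools, and double positive pools were lower than erythroid pools with a log2 difference of -2.26 ± 0.31 (adjusted p = 0.00059). Under library size alone the erythroid minus endothelial difference was 0.48 (adjusted p = 0.14). Dnajc13 (RME-8), which acts with HSC70 on endosomes, was at 72.5 and 62.9 CPM in double positive pools, 18.9, 11.7 and 6.84 CPM in erythroid pools and 37.2, 45.4 and 39.2 CPM in endothelial pools. It was lowest in erythroid pools, with a log2 difference of -1.69 ± 0.36 (adjusted p = 0.0055) against endothelial pools, and double positive pools exceeded erythroid pools with a log2 difference of 2.43 ± 0.39 (adjusted p = 0.0015). Dnajc7 (TPR2), which passes clients between HSP70 and HSP90, was at 31.7 and 23.6 CPM in double positive pools, 40.0, 15.8 and 11.7 CPM in erythroid pools and 73.7, 53.7 and 73.7 CPM in endothelial pools. Its erythroid minus endothelial difference was -1.56 ± 0.44 (adjusted p = 0.02), lost without endothelial pool 1 (adjusted p = 0.0576) or 3 (0.0577) or erythroid pool 5 (0.0585). Dnajc7 overlaps Cnp on the opposite strand, which was at 1.53 and 3.66 CPM in double positive pools, 0 in erythroid pools and 33.8, 27.8 and 25.0 CPM in endothelial pools. The strand setting of the counting is not known here, so the part of Cnp reads in the Dnajc7 difference was not tested.

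Some J protein genes had counts in double positive pools and none elsewhere. Dnajc22, a multipass membrane J protein linked to endocytosis in Drosophila, was at 56.5 and 49.3 CPM in double positive pools and 0 in all other pools. This put it at least 186-fold above erythroid pools (adjusted p = 0.0012) and at least 352-fold above endothelial pools (adjusted p = 0.0022). Dnajc6 (auxilin), which uncoats clathrin vesicles with HSC70, was at 10.3 and 9.77 CPM in double positive pools and 0 elsewhere, at least 35.2-fold above erythroid and 66.7-fold above endothelial pools. Both Dnajc6 calls were lost without either double positive pool (adjusted p from 0.121 to 0.190). Visceral endoderm markers, at 87026 and 88911 CPM in those pools, moved with both genes, and their part was not tested.

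Dnaja4 and Dnajb3 were highest in erythroid pools but overlap genes on the opposite strand, and the strand setting of the counting is not known here. Reads of overlapping partners therefore cannot be told apart by strand, and the levels of partners are given. Dnaja4, a cholesterol-responsive J protein, was at 1.15 and 1.63 CPM in double positive pools, 38.9, 27.6 and 34.2 CPM in erythroid pools and 0, 0 and 3.71 CPM in endothelial pools. Erythroid pools exceeded endothelial pools with a log2 difference of 4.76 ± 1.33 (adjusted p = 0.019), a call lost under library size alone (adjusted p = 0.0716), and double positive pools were below erythroid pools with a log2 difference of -4.57 ± 1.58 (adjusted p = 0.045), a call lost without any 1 of the double positive or erythroid pools (adjusted p from 0.0638 to 0.206). Wdr61, on the opposite strand, shares 51.9% of the 50-base words of Dnaja4 and was at 281 and 243 CPM in double positive pools, 111, 99.5 and 84.0 CPM in erythroid pools and 47.9, 46.5 and 31.5 CPM in endothelial pools. Dnajb3, a testis J protein that lies opposite the Ugt1a cluster, was at 6.30 and 5.90 CPM in double positive pools, 34.9, 46.3 and 40.1 CPM in erythroid pools and 0, 0.651 and 1.61 CPM in endothelial pools. The Ugt1a genes that overlap it and have a row in the count table were at 0 in erythroid pools. Ugt1a7c, the highest of them, was at 20.8 and 10.6 CPM in double positive pools and 14.7, 18.1 and 15.0 CPM in endothelial pools. The part of Ugt1a reads in the Dnajb3 values was not tested. Dnajb3 was higher in erythroid than in endothelial pools with a log2 difference of 5.74 ± 0.89 (adjusted p = 0.00096). The double positive minus erythroid difference was -2.72 ± 0.88 (adjusted p = 0.035) and the double positive minus endothelial difference 3.02 ± 0.88 (adjusted p = 0.041), and both were lost without double positive pool 7 (adjusted p = 0.163 and 0.155) or 8 (0.178 and 0.147), without any 1 erythroid pool (0.0522 to 0.0744) and, for the second, without endothelial pool 2 (0.0967). Under library size alone the double positive calls of Dnajb3 were lost against erythroid (log2 difference -1.81, adjusted p = 0.158) and endothelial pools (2.40, 0.115). The call against endothelial pools was also lost with RLE factors (adjusted p = 0.0516), library size less globin counts (0.0717) and a fit of those populations alone (0.154). Dnajc28, a J protein of unclear function, was at 1.34 and 0.204 CPM in double positive pools, 18.2, 10.5 and 0 CPM in erythroid pools and 0 CPM in endothelial pools, at least 70.0-fold higher in erythroid than in endothelial pools. It was at 0 in erythroid pool 6, and the call (adjusted p = 0.024) was lost without any 1 endothelial pool (0.0514 to 0.0553).

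Dnajc14, which chaperones dopamine receptor transport, was at 6.87 and 4.68 CPM in double positive pools, 17.5, 13.9 and 31.6 CPM in erythroid pools and 18.2, 22.9 and 22.9 CPM in endothelial pools. Double positive pools were lowest, with a log2 difference of -1.88 ± 0.52 (adjusted p = 0.033) against endothelial and -1.85 ± 0.52 (adjusted p = 0.02) against erythroid pools. Leaving out double positive pool 7 or 8 ended both calls (adjusted p = 0.142 and 0.253 against endothelial, 0.0791 and 0.160 against erythroid pools), and leaving out any 1 endothelial pool ended the call against endothelial pools (0.0540 to 0.0696). Of its 50-base words, 25.6% lie in other genes, chiefly Ormdl2 on the opposite strand. Dnajc14 also overlaps Sarnp on the same strand, at 112 and 129 CPM in double positive pools, 176, 159 and 182 CPM in erythroid pools and 86.7, 85.4 and 86.6 CPM in endothelial pools. Tmem198b, on the opposite strand, was at 0.573 and 0 CPM in double positive pools, 0 in erythroid pools and 6.07, 11.6 and 4.68 CPM in endothelial pools. The part of their reads in the Dnajc14 differences was not tested. The remaining tested J genes, 3 of the Dnaja, 6 of the Dnajb and 15 of the Dnajc class counting those already given, passed in no comparison.

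Hspbp1, a nucleotide exchange factor for HSP70 included by its symbol, was at 24.6 and 28.3 CPM in double positive pools, 47.5, 63.7 and 50.8 CPM in erythroid pools and 29.0, 33.0 and 28.4 CPM in endothelial pools. It was higher in erythroid than in endothelial pools with a log2 difference of 0.84 ± 0.24 (adjusted p = 0.022), but -0.70 under library size alone. That call was lost without endothelial pool 1 (adjusted p = 0.0601) or 3 (0.0621), erythroid pool 5 (0.0850) or double positive pool 8 (0.0555). Double positive pools were below erythroid pools with a log2 difference of -1.03 ± 0.28 (adjusted p = 0.018), lost without double positive pool 7 (0.143) or 8 (0.0919). Hspbap1 was at 32.6 and 33.4 CPM in double positive pools, 7.45, 13.9 and 12.7 CPM in erythroid pools and 8.58, 9.76 and 2.58 CPM in endothelial pools, higher in double positive than in endothelial pools with a log2 difference of 2.24 ± 0.60 (adjusted p = 0.03), a call lost without double positive pool 7 (adjusted p = 0.159) or 8 (0.177) or endothelial pool 1 (0.0592). Under library size alone, the double positive minus erythroid difference of Hspbp1 was -0.12 (adjusted p = 0.740). The Hspbap1 call was also lost under library size alone (log2 difference 1.60, adjusted p = 0.0900) and with library size less globin counts (1.77, 0.0692). Hspb11 passed in no comparison.

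**Figure D5:**
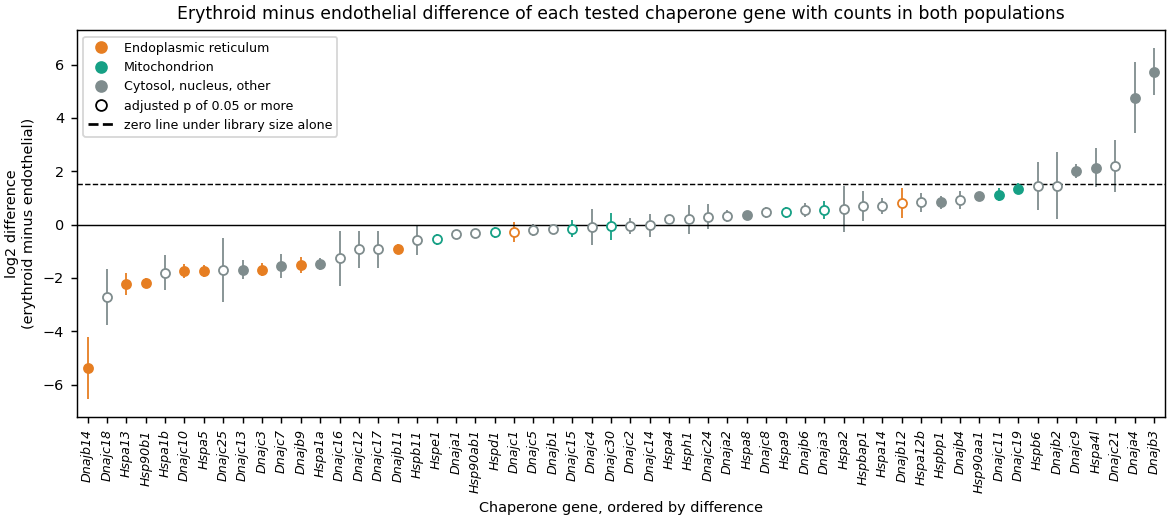
Log2 difference of erythroid minus endothelial pools for the 56 tested chaperone genes with counts in both populations, with SE bars; colours give the compartment, filled points have an adjusted p under 0.05, and the dashed line marks where 0 would lie under library size alone. The filled ER points all lie below 0, and 5 genes lie above the dashed line.

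Other genes of the folding pathways were taken from lists of partners. Of 16 other ER folding genes, 9 were lower and 1 (Atf4) higher in erythroid than in endothelial pools, with a median of -1.41. The background was 26.6% lower and 14.4% higher among all genes. Under library size alone 13 were lower and none higher, beside 59.9% and 3.46%. Pdia6, a disulfide isomerase, was at 391 and 364 CPM in double positive pools, 78.0, 73.5 and 92.2 CPM in erythroid pools and 402, 499 and 459 CPM in endothelial pools, lower in erythroid than in endothelial pools with a log2 difference of -2.48 ± 0.15 (adjusted p = 5.09e-06). P4hb (PDI), the main isomerase, was at 1271 and 1087 CPM in double positive pools, 136, 154 and 116 CPM in erythroid pools and 612, 687 and 592 CPM in endothelial pools, with an erythroid minus endothelial difference of -2.22 ± 0.15 (adjusted p = 8.61e-06) and a double positive minus erythroid difference of 3.12 ± 0.16 (adjusted p = 5.19e-06). Pdia3, which folds glycoproteins with calreticulin, was at 591 and 606 CPM in double positive pools, 196, 166 and 194 CPM in erythroid pools and 847, 789 and 775 CPM in endothelial pools, lower in erythroid than in endothelial pools with a log2 difference of -2.11 ± 0.12 (adjusted p = 4.07e-06). These calls of Pdia6, P4hb and Pdia3 held under all 18 alternatives. The Canx fall in erythroid pools was lost without endothelial pool 1 (adjusted p = 0.0641) or 2 (0.0604) or erythroid pool 5 (0.0609). The Sdf2 fall was lost without endothelial pool 2 (adjusted p = 0.0550) or 3 (0.0623) or erythroid pool 6 (0.0602). Double positive pools had 11 of the 16 higher and 2 lower than erythroid pools, beside 31.5% and 10.6% of all genes. The Hyou1 rise was lost without endothelial pool 3 (adjusted p = 0.0569) or erythroid pool 4 (0.0567) or 5 (0.0693). Under library size alone 12 were higher and none lower, beside 47.4% and 3.91%. Against endothelial pools 1 was higher (P4hb) and 2 lower, beside 14.6% and 6.92% of all genes. Under library size alone none was higher (P4hb adjusted p = 0.254) and 3 were lower, beside 9.21% and 15.7%. The 2 falls with TMM against endothelial pools were Pdia3 and Sdf2l1. Leaving out double positive pool 7 or 8 ended both calls (adjusted p = 0.218 and 0.169 for Pdia3, 0.311 and 0.0888 for Sdf2l1), as did leaving out endothelial pool 1 (0.115 and 0.0856) or 2 (0.0695 and 0.109), and Pdia3 was also lost without endothelial pool 3 (0.0754) or erythroid pool 6 (0.0593).

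The 8 subunits of the cytosolic chaperonin TRiC, which folds actin and tubulin, were all higher in erythroid than in endothelial pools (median 0.81), beside 14.4% of all genes. Under library size alone none was higher and 5 were lower, beside 59.9% of all genes, and the median was -0.74. The Cct4 call was lost in 15 of the 18 alternatives, among them RLE factors (adjusted p = 0.175) and DESeq2 (0.179). The Cct8 call was lost in 7. Cct5 was at 264 and 300.4 CPM in double positive pools, 431, 486 and 448 CPM in erythroid pools and 273, 227 and 241 CPM in endothelial pools, a difference of 0.88 ± 0.13 (adjusted p = 0.00072). Tcp1 was at 240.2 and 304 CPM in double positive pools, 496, 445 and 472 CPM in erythroid pools and 191, 235 and 163 CPM in endothelial pools, a difference of 1.26 ± 0.17 (adjusted p = 0.00043). The count was 5 without erythroid pool 4 and at least 6 without any 1 of the others. Between double positive and erythroid pools 4 subunits were lower and none higher, 2 were lower without erythroid pool 4 and none without double positive pool 7. That direction turned under library size alone, with 2 subunits higher, none lower and a median of 0.30, against a median of -0.61 with TMM. The background was 31.5% higher and 10.6% lower with TMM, and 47.4% and 3.91% under library size alone. Against endothelial pools 1 was higher (Cct6a), 2 without endothelial pool 2, and none without double positive pool 7 or 8 or endothelial pool 3, while under library size alone none was higher and 2 were lower. The background against endothelial pools was 14.6% higher and 6.92% lower, and 9.21% and 15.7% under library size alone. Of 6 prefoldin subunits, which hand clients to TRiC, 2 were higher (Vbp1 and Pfdn6) and none lower in erythroid than in endothelial pools. That stood beside 14.4% and 26.6% of all genes. Under library size alone none was higher and 4 were lower, beside 3.46% and 59.9%. Double positive pools had 1 higher (Pfdn1) and none lower than endothelial pools, beside 14.6% and 6.92% of all genes. Under library size alone they had 4 higher and none lower than erythroid pools (median 1.14), beside 47.4% and 3.91% of all genes. With TMM they had 2 higher and 2 lower than erythroid pools (median 0.24), beside 31.5% and 10.6%. The last pair of counts was 1 and 0 without double positive pool 7, and 1 was higher without double positive pool 8 or erythroid pool 4 or 6.

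Among 19 co-chaperones of HSP90 and HSP70, 5 rose and 1 fell in erythroid against endothelial pools, beside 14.4% and 26.6% of all genes. Under library size alone 1 was higher and 14 lower, beside 3.46% and 59.9% of all genes. Bag2, an exchange factor that inhibits the ubiquitin ligase CHIP, was at 163 and 121 CPM in double positive pools, 92.4, 106 and 81.1 CPM in erythroid pools and 21.1, 17.7 and 13.7 CPM in endothelial pools. Endothelial pools were lowest, with a log2 difference of 2.41 ± 0.24 (adjusted p = 7.91e-05) for erythroid and 3.02 ± 0.26 (adjusted p = 0.00011) for double positive pools. Fkbp4 (FKBP52), an HSP90 immunophilin, was at 263 and 269 CPM in double positive pools, 285, 274 and 251 CPM in erythroid pools and 149, 127 and 114 CPM in endothelial pools, and endothelial pools were again lowest, with log2 differences of 1.05 ± 0.15 (adjusted p = 0.00048) for erythroid and 1.03 ± 0.16 (adjusted p = 0.0025) for double positive pools, although under library size alone the erythroid minus endothelial difference was -0.49 and the double positive minus endothelial difference 0.40 (adjusted p = 0.118). The fall in erythroid pools was Bag3, the autophagy partner of Hspb8, at a mean of 1.08 ± 1.61 CPM in erythroid and 27.1 ± 12.3 CPM in endothelial pools (SD, n = 3 each). Its erythroid minus endothelial difference was -4.69 ± 1.04 (adjusted p = 0.0064). Double positive pools had 2 higher than endothelial pools (3 without erythroid pool 5 or 6, 4 without erythroid pool 4) and 1 lower (Cdc37; none without double positive pool 7 or 8 or endothelial pool 1). The background was 14.6% higher and 6.92% lower. Under library size alone the counts were 1 and 4, beside 9.21% and 15.7% of all genes. Against erythroid pools, double positive pools had 3 higher and 2 lower (median -0.02), beside 31.5% and 10.6% of all genes. Under library size alone they had 10 and none (median 0.89), beside 47.4% and 3.91% of all genes. The count of higher genes was 1 without double positive pool 7 and 0 without double positive pool 8, both with none lower, and 1 was lower without endothelial pool 3 or erythroid pool 4 or 6. Without erythroid pool 5, the rise of Bag3 (adjusted p = 0.0623) and the falls of Ahsa1 (0.0610) and Cdc37 (0.0575) were lost, and the counts were 2 and 2.

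Of the heat shock factors and their inhibitor, 3 of 4 were tested. Hsf1, the master factor, was at 19.9 and 27.7 CPM in double positive pools, 44.9, 41.8 and 38.1 CPM in erythroid pools and 46.3, 29.8 and 28.9 CPM in endothelial pools and passed in no comparison. Hsf2 was at 38.9 and 47.4 CPM in double positive pools, 1.86, 0.951 and 4.23 CPM in erythroid pools and 15.2, 13.8 and 12.4 CPM in endothelial pools, lower in erythroid than in endothelial pools with a log2 difference of -2.56 ± 0.54 (adjusted p = 0.0049) and higher in double positive than in erythroid pools with a log2 difference of 4.20 ± 0.59 (adjusted p = 0.00064). Hsbp1, which binds and inhibits HSF1, was at 292 and 356 CPM in double positive pools, 57.3, 44.0 and 54.7 CPM in erythroid pools and 160.2, 192 and 156 CPM in endothelial pools, with differences of -1.70 ± 0.17 (adjusted p = 9.18e-05) and 2.64 ± 0.19 (adjusted p = 2.07e-05) for the same comparisons. The Hsbp1 level was also higher in double positive than in endothelial pools, with a log2 difference of 0.93 ± 0.18 (adjusted p = 0.0083), a call lost without double positive pool 8 (adjusted p = 0.104), under library size alone (0.29, adjusted p = 0.244) and with library size less globin counts (0.47, adjusted p = 0.0902). Hsf4 had counts in double positive pools only and was not tested.

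Among 7 other mitochondrial folding and protease genes, 5 were higher in erythroid than in endothelial pools, beside 14.4% of all genes. Under library size alone none was higher, beside 3.46% of all genes. Trap1, the mitochondrial HSP90, was at 89.5 and 82.4 CPM in double positive pools, 143, 146 and 149 CPM in erythroid pools and 69.6, 65.9 and 55.0 CPM in endothelial pools, higher in erythroid than in endothelial pools with a log2 difference of 1.20 ± 0.16 (adjusted p = 0.00047). The count was 3 without erythroid pool 4 or 6, endothelial pool 3, or either double positive pool, and the Trap1 difference was -0.35 under library size alone. Double positive pools had 3 higher and none lower than endothelial pools, beside 14.6% and 6.92% of all genes. Against erythroid pools 1 was higher (Grpel1) and 1 lower (Trap1), beside 31.5% and 10.6%. Grpel1, the exchange factor of mortalin, was at 208 and 228 CPM in double positive pools, 109.6, 139 and 118 CPM in erythroid pools and 83.7, 107 and 103 CPM in endothelial pools, a log2 difference of 1.15 ± 0.18 (adjusted p = 0.003) for double positive minus endothelial pools, which was 0.52 under library size alone (adjusted p = 0.0622). Without double positive pool 7 or 8, the Trap1 fall was lost (adjusted p = 0.0609 and 0.106), and under library size alone its sign turned (0.15). For the 7 genes library size alone gave 1 higher and none lower in double positive against endothelial pools, beside 9.21% and 15.7% of all genes. Against erythroid pools it gave 3 and none, beside 47.4% and 3.91%. Of the alpha crystallins, Cryaa was at 0 throughout, and Cryab was at 3.82 and 4.68 CPM in double positive pools, 0 in erythroid pools and 1.45, 0 and 1.13 CPM in endothelial pools. Cryab was at least 14.9-fold higher in double positive than in erythroid pools, a call lost without any 1 pool of either population (adjusted p from 0.0580 to 0.165). The globin chaperone gene Ahsp was not analysed here.

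Compared per length (CPM per kilobase of annotated exon), Hsp90ab1 and Hspa8 led in every population. Hsp90ab1 reached 389 ± 30.2 in double positive pools (SD, n = 2), 375 ± 63.0 in erythroid pools and 466 ± 59.2 in endothelial pools (n = 3 each), and Hspa8 reached 288 ± 11.2, 332 ± 42.3 and 256 ± 22.3 in the same populations. The pools of both genes overlapped in erythroid cells only. Below them the order differed. In double positive pools Hspb1 (266 ± 5.24), Hspe1 (223 ± 39.8) and Hsp90aa1 (189 ± 39.8) came next, with Hspe1 and Hsp90aa1 overlapping. In erythroid pools Hsp90aa1 (170.5 ± 12.4) was followed by Dnajc9 (114 ± 10.3) and Dnajc8 (66.9 ± 15.2), a splicing-linked J protein, without overlap. In endothelial pools Hspa5 (177 ± 22.2), Hsp90b1 (131 ± 30.8) and Hspa1a (127 ± 29.4) came next, and neighbours in this order overlapped.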

How the data were processed

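RNA of 8 pools of sorted yolk sac cells was measured by Smart-seq2, with the groups taken from the labels. The deposited values are raw read counts per gene, which the authors made with HTSeq on mm10 after FastQC, per the submitters' processing notes; for the aligner, annotation, versions and strand setting, nothing is given in the sources used here. Total counts were 3723128 to 7618444 per library. Without molecular identifiers PCR copies are counted as reads, and the floors and the interval given cover counting error alone.

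Counts were scaled by TMM, filtered with filterByExpr (minimum count of 10) and tested with edgeR 4.0.16 (quasi-likelihood test, R 4.3.3) in a fit of all 8 libraries, with Benjamini-Hochberg adjustment over 12136 genes and a threshold of 0.05. The common biological coefficient of variation was 0.541. Alternatives used DESeq2 1.42.0, limma-voom (limma 3.58.1), other scalings and filters, each comparison's own libraries, and each library left out in turn. The fit was tested on simulated data. Where a group had no counts, folds are bounds against a floor of 3 counts over the group. Overlaps and 50-base words came from GENCODE M21, which matched all 72 genes, and promoter windows from RefSeq (GRCm38.p6; 59 of the 72 genes). The members, lists and tests were chosen with earlier results of these data known, and the shares, the partner genes of overlapping loci and the scaling to library size without globin counts were added after values were seen. Genes are named by this rule: 19 chosen members whatever their values; in each comparison, up to 8 rises and 8 falls past the test with no overlap and at least 20 CPM in the higher population; up to 3 genes per partner list with the smallest adjusted p; and members needed to account for all of them. Members with fewer counts, and partner genes such as Hsf1, Bag3 and Cryab, were named after their values were seen.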

Additional observations from a re-analysis of the deposited data

How the results depend on the processing

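Scaling changed the results most. Under library size alone, erythroid against endothelial pools had 3 members higher and 42 lower (median log2 difference -1.60), double positive against endothelial pools 7 and 12 (median -0.28), and double positive against erythroid pools 33 and 3 (median 1.11). The erythroid minus endothelial difference then changed sign for Dnajc11 (-0.41), Dnajc19 (-0.19), Hsp90aa1 (-0.47), Hspa4 (-1.35), Hspa8 (-1.17), Hspa9 (-1.08) and Hspbp1 (-0.70), as did the double positive minus endothelial difference of Dnajb11 (-0.63) and the double positive minus erythroid difference of Hspa8 (0.71). Among all called genes, the share that was higher moved to 5.47, 37.0 and 92.4% under library size alone, against 35.1, 67.9 and 74.9% with TMM, for erythroid against endothelial, double positive against endothelial and double positive against erythroid pools. With library size less globin counts, a choice made after seeing the data, 20 members were lower in erythroid than in endothelial pools (median -0.42), and double positive against endothelial pools had 7 higher and 8 lower (median -0.10). With RLE factors the medians of erythroid against endothelial and double positive against endothelial pools were -0.24 and 0.23, with DESeq2 -0.24 and 0.23, and with a minimum count of 50 the second was 0.22. A fit of the populations compared alone gave 7 members higher in erythroid than in endothelial pools. The cause of these shifts was not tested. Leaving out each library in turn gave 7 to 10 members higher and 11 to 16 lower in erythroid than in endothelial pools (median -0.19 to 0.00), 5 to 11 higher and 2 to 5 lower in double positive than in endothelial pools (median 0.23 to 0.48), and 12 to 16 higher and 4 to 9 lower in double positive than in erythroid pools (median 0.19 to 0.24). Without double positive pool 7 or 8, 7 of the 15 calls between double positive and endothelial pools were kept, and 17 and 16 of the 24 between double positive and erythroid pools; the lone pool is then assumed to vary like the other groups. Limma-voom kept all 23, 15 and 24 calls. No paired analysis was possible because the groups share no replicate number. With 2 or 3 pools of 24 or 25 cells a group, small differences in genes of few counts were not detectable at this depth.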
